A study of Mus musculus with 95 samples.

Results

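The genes described here are 10 regulators of the mesendoderm and the primitive streak, namely T, Eomes, Mixl1, Gsc, Mesp1, Tbx6, Evx1, Fgf8, Isl1 and Tbx5, of 23377 genes in a count table of mouse embryonic stem cells. They were taken by name. The series held 95 samples, 14 of them RNA-seq libraries and the other 81 from ChIP-seq, with 80 peak lists. All lines used for RNA came from E14 embryonic stem cells grown on gelatin in GMEM with fetal bovine serum, LIF, the GSK3β inhibitor CHIR99021 and the MEK1/2 inhibitor PD0325901, so that wild-type and knockout cells alike received a drug that activates the Wnt pathway. Wild-type cells were compared with lines lacking Pcgf1 (Pcgf1-/-), Pcgf2 and Pcgf4, also called Bmi1 (Pcgf2/4-/-), Pcgf3 and Pcgf5 (Pcgf3/5-/-), Pcgf6 (Pcgf6-/-), Pcgf1, Pcgf2 and Pcgf4 (Pcgf1/2/4-/-), or Pcgf3, Pcgf5 and Pcgf6 (Pcgf3/5/6-/-), with 2 RNA libraries each. Knockouts were made with Cas9, the double and triple ones from single-knockout clones in further rounds. In the count table both libraries of a knockout carried the name of the same clone, so genotype and clone cannot be told apart, and p-values measure only the spread between libraries, which may be technical. ChIP-seq also covered Ring1a-/- cells that carry a floxed Ring1b allele (Ring1a-/-_Ring1bfl), cells without either gene (Ring1a/b-/-), an Ezh1/2-/- line, and cells with lentiviral hairpins (shCtr, shE2F6, shMGA, shMGAdHLH, shE2F6-MGAdHLH, shUsf1 and shUsf2 by label).

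The primitive streak is the site of the gastrulating embryo where epiblast cells turn into mesoderm and definitive endoderm. Nodal, Wnt and BMP signals switch on T and Eomes there, which with Mixl1 and Gsc pattern the streak, while Mesp1 and Tbx6 follow in nascent and presomitic mesoderm and Isl1 and Tbx5 in heart and limb progenitors. In embryonic stem cells the promoters of such genes are textbook Polycomb targets: PCGF proteins pair with RING1A or RING1B in Polycomb repressive complex 1, which places ubiquitin on a lysine of histone H2A (the mark H2AK119Ub1), and SUZ12 is a subunit of Polycomb repressive complex 2, which trimethylates a lysine of histone H3 (the mark H3K27me3). PCGF2 and PCGF4 define the canonical form of the first complex, and PCGF6 sits with MGA, E2F6 and their partners in a variant form.

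A few stretches of DNA show where the binding data touch these genes. They are given 5′ to 3′ on the strand of the gene, from the mouse build NCBIM37. The first is the 250 bases before the start of Mixl1 at chr1:182627166-182627415, and its capitals mark the matches to 5 short motifs. Each motif was searched as 1 exact string on both strands, and other forms of it were not searched. Of the 10 upstream windows only that of Mixl1 held any of these strings. The other 3 are 201 bases around wild-type peak summits: the PCGF2 summit at -663 bases from the start of T, chr17:8626525-8626725, the PCGF6 summit inside the coding exon of Mesp1 at chr7:86937851-86938051, and the PCGF2 summit at -685 bases from the start of Tbx6, chr7:133924212-133924412. No annotated gene overlaps the T and Tbx6 windows.
Mixl1 upstream: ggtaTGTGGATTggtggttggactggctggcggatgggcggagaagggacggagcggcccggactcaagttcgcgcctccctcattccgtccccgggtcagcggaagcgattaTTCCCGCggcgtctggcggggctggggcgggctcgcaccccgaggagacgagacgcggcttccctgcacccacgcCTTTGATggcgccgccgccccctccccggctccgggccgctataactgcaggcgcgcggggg
T PCGF2 summit: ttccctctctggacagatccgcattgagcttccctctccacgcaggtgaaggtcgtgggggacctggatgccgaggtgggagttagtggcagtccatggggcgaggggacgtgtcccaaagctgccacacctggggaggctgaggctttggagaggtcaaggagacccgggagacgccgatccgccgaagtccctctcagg
Mesp1 PCGF6 summit: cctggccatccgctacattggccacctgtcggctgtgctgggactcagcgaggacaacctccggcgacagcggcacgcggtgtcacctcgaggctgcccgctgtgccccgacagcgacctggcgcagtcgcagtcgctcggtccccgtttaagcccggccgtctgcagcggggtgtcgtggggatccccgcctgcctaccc
Tbx6 PCGF2 summit: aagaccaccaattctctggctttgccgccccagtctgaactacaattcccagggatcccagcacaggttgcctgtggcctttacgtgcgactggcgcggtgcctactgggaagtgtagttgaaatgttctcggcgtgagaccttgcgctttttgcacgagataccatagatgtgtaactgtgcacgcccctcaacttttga
In the Mixl1 window CTTTGAT, a form of the TCF/LEF motif, lay 62 to 56 bases before the start. On the opposite strand AATCCACA, a form of the FOXH1 motif, lay 246 to 239 bases before the start. GCGGGAA, a form of the E2F motif, lay on that strand 137 to 131 bases before the start. Of 22350 upstream windows of protein-coding genes, 2.99% held CTTTGAT, 0.729% AATCCACA and 4.73% GCGGGAA. The T-box motif TCACACCT (0.957% of the windows) and the E-box CACGTG (6.53%) were in none of the members' windows, nor were any of the 5 motifs in the 3 summit windows. CACGTG, the E-box that MGA with MAX can bind, was in 20.9% of the 1868 wild-type PCGF6 summit windows. Such matches describe the letters and are not evidence of binding.

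Library totals ran from 2147968 to 7848161 counts. Levels are given in CPM, counts divided by the library size after TMM scaling. The wild-type libraries differed by less than the sampling noise (chi-square per degree of freedom 0.943 over 13163 genes, against 1.19 to 22.8 in the other groups) and are counted as 1 sample, so their values are given singly. The edgeR fit treated them as 2 libraries, and calls that change when they are summed into 1 are named. Of the targeted genes, Pcgf1 averaged 4.01 CPM in Pcgf1-/- against 63.6 in wild-type, and Pcgf6 was at 0 in Pcgf6-/- against 35.3. Pcgf3, Pcgf5 and Pcgf6 averaged 13.6, 15.0 and 39.6 CPM in the libraries labelled Pcgf3/5/6-/-, against 15.9, 11.9 and 35.3. None of these was called lowered, and the libraries therefore are named by their label here. Pcgf5 averaged 5.04 CPM in Pcgf3/5-/-, but also 4.74 in Pcgf1-/- and 4.82 in Pcgf2/4-/-. Pcgf2, Bmi1 and Pcgf3 messenger RNA was not lowered in the double knockouts labelled for them, at 47.9, 13.1 and 12.1 CPM against 45.9, 15.2 and 15.9. In Pcgf1/2/4-/-, Pcgf1 averaged 0.719 CPM, while Pcgf2 and Bmi1 averaged 57.0 and 16.9 and were not lowered. These are levels of messenger RNA and do not measure the proteins.

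Of the 10 genes, 5 had enough counts to be tested, T, Eomes, Mixl1, Isl1 and Tbx5. The other 5 held between 19 counts (Fgf8) and 41 counts (Mesp1) over all 14 libraries and are given as counts. Per kilobase of exon, the wild-type level was highest for T at 14.3 CPM per kb, followed by Mixl1 at 3.21, Eomes at 2.85 and Isl1 at 0.727. The remaining 6 lay at or below 0.391 CPM per kb, the value of Gsc, and Tbx6 was at 0 of its counts in both wild-type libraries. A fall in such bulk samples cannot tell fewer cells of a type from less RNA per cell.

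**Figure D1:**
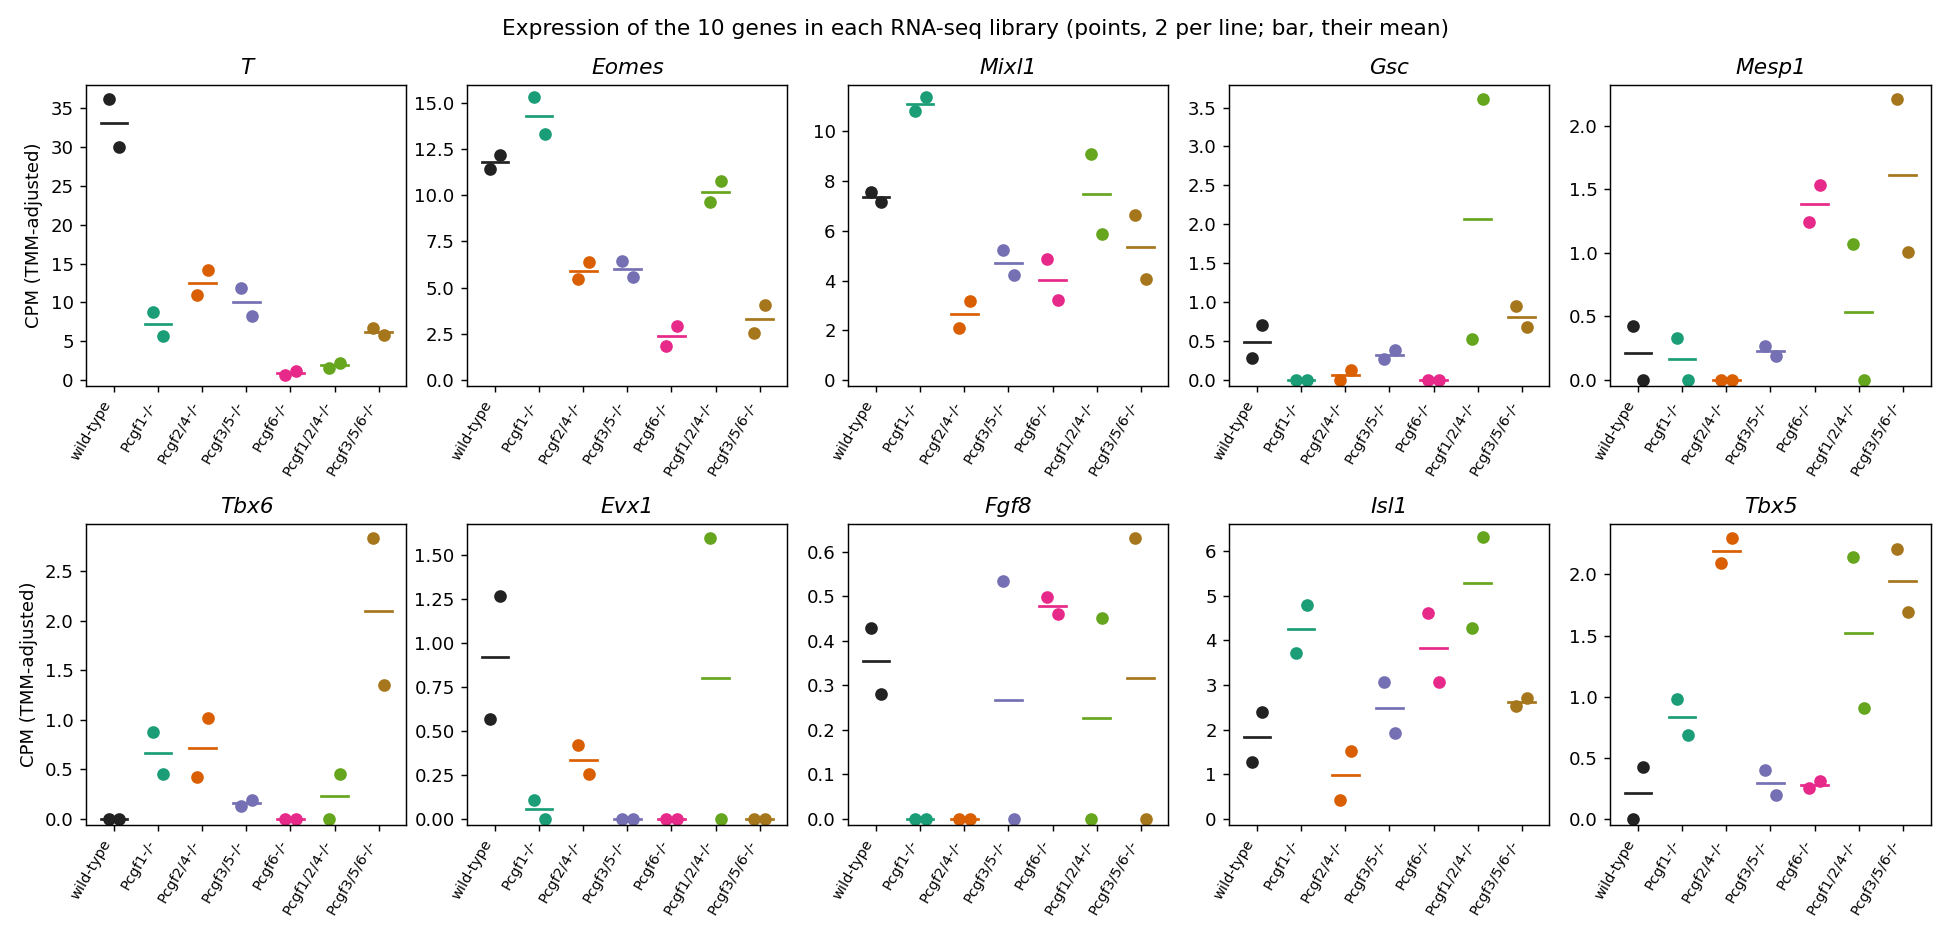
Level of each of the 10 genes in CPM (vertical axes) in the 7 genotypes (horizontal axes). Points are single libraries and bars are the mean of the 2. T stood between 30.0 and 36.2 CPM in wild-type and below 14.3 CPM in every knockout library. The 5 genes without a test reached at most 3.61 CPM, the value of Gsc in 1 Pcgf1/2/4-/- library.

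T was lowered in all 6 knockouts, Eomes in 4 and Mixl1 in 2, whereas Isl1 was raised in 3 and Tbx5 in 3. In Pcgf1-/-, T was lowered and Isl1 raised, where 18.4% of the 15464 genes tested were lowered and 13.9% raised. T, Eomes and Mixl1 were lowered and Tbx5 raised in Pcgf2/4-/-, against 13.5% and 8.10% of all genes. In Pcgf3/5-/-, T and Eomes were lowered, with backgrounds of 10.4% lowered and 11.1% raised. Pcgf6-/- had T, Eomes and Mixl1 lowered and Isl1 raised, beside 18.6% and 27.8% of all genes. In Pcgf1/2/4-/-, T was lowered and Isl1 and Tbx5 raised, beside 22.6% and 14.4%. The libraries labelled Pcgf3/5/6-/- had T and Eomes lowered and Tbx5 raised, beside 25.3% and 28.0%. With 5 genes tested a single call is already a share of the size of most of these, so the counts describe the genes and set nothing apart, and the 6 comparisons share the wild-type libraries. The median log2 fold change of the 5 was 0.59 in Pcgf1-/-, -0.95 in Pcgf2/4-/-, -0.62 in Pcgf3/5-/-, -0.84 in Pcgf6-/-, -0.0010 in Pcgf1/2/4-/- and -0.45 in the libraries labelled Pcgf3/5/6-/-, against medians of all genes between -0.11 and 0.048.

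**Figure D2:**
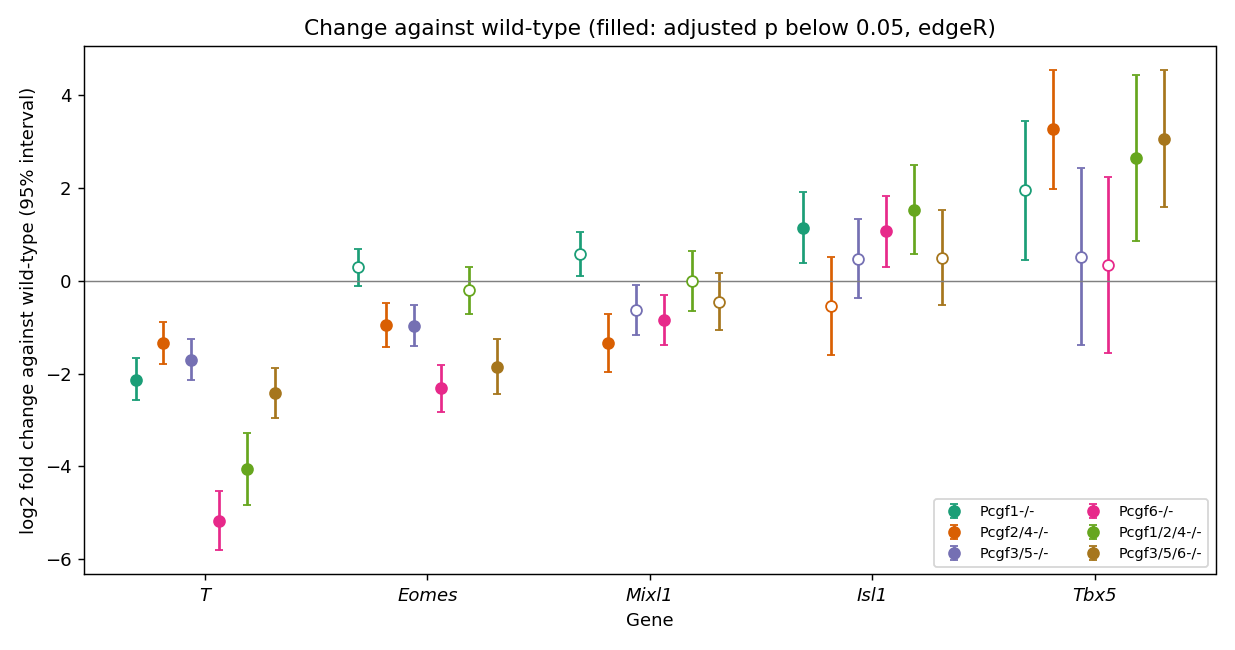
Log2 fold change against wild-type (one axis) of the 5 tested genes in the 6 knockouts. Bars are 95% intervals from the SE and a normal quantile. Filled points have an adjusted p below 0.05. T lies below 0 in every knockout, from -1.34 in Pcgf2/4-/- to -5.17 in Pcgf6-/-, and Isl1 and Tbx5 points lie mostly above 0.

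T, the founding T-box factor that drives mesoderm formation, fell in every line. It stood at 36.2 and 30.0 CPM in the wild-type libraries, at 8.74 and 5.72 in Pcgf1-/-, at 10.9 and 14.2 in Pcgf2/4-/- and at 11.8 and 8.25 in Pcgf3/5-/-. Values were 0.622 and 1.23 CPM in Pcgf6-/-, 1.60 and 2.26 in Pcgf1/2/4-/- and 6.64 and 5.75 in the libraries labelled Pcgf3/5/6-/-. Every knockout library lay below both wild-type libraries. Below wild-type, the neighbouring groups Pcgf2/4-/- and Pcgf3/5-/-, Pcgf3/5-/- and Pcgf1-/-, and Pcgf1-/- and those labelled Pcgf3/5/6-/- overlapped, whereas both Pcgf1/2/4-/- libraries lay above both Pcgf6-/- libraries. The log2 fold change was -5.17 (SE 0.33, edgeR adjusted p = 1.97e-08) in Pcgf6-/- and -4.06 (SE 0.39, adjusted p = 6.65e-06) in Pcgf1/2/4-/-. It was -2.41 in the libraries labelled Pcgf3/5/6-/-, -2.13 in Pcgf1-/-, -1.70 in Pcgf3/5-/- and -1.34 in Pcgf2/4-/-, with edgeR adjusted p-values between 7.05e-06 and 0.00102. The authors' deposited table gave T log2 fold changes of -5.17, -4, -2.34, -2.08, -1.7 and -1.32 in the same order of knockouts, although its column for Pcgf6 names another clone than the count table.

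Between lines with nested genotypes, T in Pcgf1/2/4-/- differed from Pcgf2/4-/- by -2.73 on the log2 scale (SE 0.46, edgeR adjusted p = 5.39e-04) and from Pcgf1-/- by -1.94 (SE 0.49, adjusted p = 0.00651). The second call was lost without Pcgf1-/- replicate 1 (adjusted p = 0.0635) or Pcgf1/2/4-/- replicate 1 (0.0605). T was higher in the libraries labelled Pcgf3/5/6-/- than in Pcgf6-/-, by 2.76 on the log2 scale (SE 0.47, edgeR adjusted p = 2.87e-04), a ratio of counts scaled to library size of 6.95 with a 95% interval of 3.62 to 14.2. The line labelled for loss of more PCGF proteins thus held more T than Pcgf6-/- alone. Its label is in doubt at the level of Pcgf3, Pcgf5 and Pcgf6 messenger RNA. The same holds for Pcgf2 and Bmi1 messenger RNA in Pcgf2/4-/- and Pcgf1/2/4-/-. Against Pcgf3/5-/-, with the same doubt, T in the libraries labelled Pcgf3/5/6-/- differed by -0.71 (SE 0.32, edgeR adjusted p = 0.0743), which did not pass.

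Across those 4 nested comparisons the members' calls were few. T alone was called in Pcgf1/2/4-/- against Pcgf1-/-, where 22.0% of all genes were lowered. Against Pcgf2/4-/- the same triple knockout had T lowered and Mixl1 and Isl1 raised, beside 18.4% and 11.6%. The libraries labelled Pcgf3/5/6-/- had Eomes lowered and Tbx5 raised against Pcgf3/5-/- (24.7% and 27.1% of all genes), and T and Tbx5 raised against Pcgf6-/-, where 19.0% of all genes were raised.

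Eomes, the T-box factor of early streak and definitive endoderm, kept its level in part of the lines. It stood at 11.4 and 12.2 CPM in wild-type, at 15.3 and 13.3 in Pcgf1-/- and at 9.61 and 10.8 in Pcgf1/2/4-/-. Levels were 5.45 and 6.39 CPM in Pcgf2/4-/- and 6.42 and 5.56 in Pcgf3/5-/-. The lowest were 1.87 and 2.91 CPM in Pcgf6-/- and 2.53 and 4.06 in the libraries labelled Pcgf3/5/6-/-. The lines thus fell into a tier near wild-type, an overlapping pair of Pcgf2/4-/- and Pcgf3/5-/-, and an overlapping pair of Pcgf6-/- and those labelled Pcgf3/5/6-/-. Log2 fold changes were -2.32 (SE 0.26, edgeR adjusted p = 4.99e-06) in Pcgf6-/- and -1.85 (SE 0.30, 1.39e-04) in the libraries labelled Pcgf3/5/6-/-. The change of -0.95 in Pcgf2/4-/- (SE 0.24, edgeR adjusted p = 0.0110) was lost when only those 2 groups were fitted (0.0923) or without wild-type replicate 2 (0.0716), and that of -0.97 in Pcgf3/5-/- (SE 0.22, 0.00730) was lost without wild-type replicate 2 (0.0621). Changes of 0.29 in Pcgf1-/- (95% interval -0.10 to 0.68, edgeR adjusted p = 0.305) and -0.20 in Pcgf1/2/4-/- (adjusted p = 0.568) did not pass. Eomes in the libraries labelled Pcgf3/5/6-/- differed from Pcgf3/5-/- by -0.88 on the log2 scale (SE 0.33, edgeR adjusted p = 0.0393), a call lost with RLE scaling (0.0553), with DESeq2 (0.109), with only those groups in the fit (0.0539), and without Pcgf3/5-/- replicate 1 (0.151) or replicate 1 of those labelled Pcgf3/5/6-/- (0.283).

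Mixl1, the homeobox gene of the streak that carries the TCF/LEF and FOXH1 letters printed above, was lowered in Pcgf2/4-/- and Pcgf6-/-. It stood at 7.56 and 7.17 CPM in wild-type, 10.8 and 11.4 in Pcgf1-/-, 2.09 and 3.19 in Pcgf2/4-/- and 5.21 and 4.22 in Pcgf3/5-/-. Its levels were 4.86 and 3.22 CPM in Pcgf6-/-, 9.08 and 5.87 in Pcgf1/2/4-/- and 6.64 and 4.06 in the libraries labelled Pcgf3/5/6-/-. Only the Pcgf1/2/4-/- libraries overlapped wild-type. The fall in Pcgf2/4-/- was -1.34 on the log2 scale (SE 0.32, edgeR adjusted p = 0.00895), lost with only those 2 groups in the fit (0.0580) or without wild-type replicate 1 (0.0504). In Pcgf6-/- the change was -0.84 (SE 0.28, edgeR adjusted p = 0.0212), lost with the wild-type libraries summed into 1 (0.050) and without wild-type replicate 1 (0.0938), wild-type replicate 2 (0.0671) or Pcgf6-/- replicate 2 (0.184). Changes of 0.59 in Pcgf1-/- (edgeR adjusted p = 0.0801), -0.62 in Pcgf3/5-/- (0.131) and -0.45 in those labelled Pcgf3/5/6-/- (0.247) did not pass, but each passed with loess offsets (0.0294, 0.0431 and 0.0101). In Pcgf1/2/4-/- the estimate was -0.0010 with a 95% interval of -0.64 to 0.64. Mixl1 was higher in Pcgf1/2/4-/- than in Pcgf2/4-/- by 1.34 (SE 0.40, edgeR adjusted p = 0.0220), a call lost without Pcgf2/4-/- replicate 2 (0.0501) or Pcgf1/2/4-/- replicate 1 (0.203).

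Gsc, Evx1 and Fgf8, an organizer homeobox gene, a posterior streak homeobox gene and a streak growth factor, were almost silent. Gsc had 2 and 5 counts in wild-type, no count in Pcgf1-/- or Pcgf6-/-, 0 and 1 in Pcgf2/4-/-, 2 and 2 in Pcgf3/5-/-, 1 and 8 in Pcgf1/2/4-/- and 3 and 2 in the libraries labelled Pcgf3/5/6-/-. Set against a floor of 3 counts over a group, it was 2.23-fold lower in Pcgf1-/- and 2.41-fold lower in Pcgf6-/-. These are no bounds, since the 95% counting intervals of the scaled ratio reached 0.724 and 0.673. Without the filter on low counts the edgeR adjusted p was 0.0813 and 0.0443, and with DESeq2 it was 0.0971 and 0.0593. The scaled ratio of Gsc was 4.44 in Pcgf1/2/4-/- (95% counting interval 1.47 to 14), where 8 of its 9 counts came from 1 library. Evx1 had 4 and 9 counts in wild-type and none in Pcgf3/5-/-, Pcgf6-/- or those labelled Pcgf3/5/6-/-. By the same floor it was 3.90-fold, 4.47-fold and 1.88-fold lower, with counting intervals that reached ratios of 0.365, 0.318 and 0.756. Without the filter the edgeR adjusted p was 0.0305, 0.0102 and 0.0557, and with DESeq2 it was 0.137, 0.0733 and 0.179. The counts of Evx1 were 1 and 0 in Pcgf1-/-, 1 and 2 in Pcgf2/4-/- and 3 and 0 in Pcgf1/2/4-/-. Evx1 counts may not be separable from 5730457N03Rik, a noncoding gene on the other strand that starts 7 bases away, since the use of strand is not given in the sources used here. Fgf8 had 3 and 2 counts in wild-type, and the other pairs ran from no count in Pcgf1-/- and Pcgf2/4-/- to 4 and 3 in Pcgf6-/-.

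Mesp1 and Tbx6, regulators of nascent and presomitic mesoderm, both lay above wild-type in the libraries labelled Pcgf3/5/6-/-, Mesp1 also in Pcgf6-/- and Tbx6 also in Pcgf1-/- and Pcgf2/4-/-. Tbx6 in Pcgf3/5-/- was above wild-type by 1 count in each library only. It passed neither without the filter on low counts (edgeR adjusted p = 0.388) nor with DESeq2 (0.436). Mesp1 had 3 and 0 counts in wild-type, 3 and 0 in Pcgf1-/-, none in Pcgf2/4-/-, 2 and 1 in Pcgf3/5-/-, 10 and 10 in Pcgf6-/-, 2 and 0 in Pcgf1/2/4-/- and 7 and 3 in the libraries labelled Pcgf3/5/6-/-. In CPM it stood at 0.428 and 0 in wild-type, 1.24 and 1.53 in Pcgf6-/- and 2.21 and 1.01 in those labelled Pcgf3/5/6-/-, so that the last pair of lines overlapped. Its scaled ratio to wild-type was 6.46 (95% counting interval 1.92 to 34.0) in Pcgf6-/- and 7.68 (1.98 to 43.5) in those labelled Pcgf3/5/6-/-. Without the filter on low counts, the edgeR adjusted p was 0.0260 and 0.0305, and with DESeq2 it was 0.0950 and 0.0636. All 3 wild-type counts of Mesp1 came from replicate 1: without it the fitted log2 fold changes, 2.54 and 2.78 with all libraries, became 5.88 and 6.12 (edgeR adjusted p = 0.0146 and 0.0131), no bound since wild-type was then at 0, and without replicate 2 they were 1.63 and 1.87 (0.174 and 0.134). Neither call held without 1 library of the line itself: the p was 0.0579 and 0.0911 without Pcgf6-/- replicate 1 and 2, and 0.253 without replicate 1 of those labelled Pcgf3/5/6-/-. Tbx6 had no count in either wild-type library or in Pcgf6-/-, 8 and 2 in Pcgf1-/-, 1 and 8 in Pcgf2/4-/-, 1 and 1 in Pcgf3/5-/-, 0 and 1 in Pcgf1/2/4-/- and 9 and 4 in the libraries labelled Pcgf3/5/6-/-. By the floor of 3 counts it was 3.48-fold higher in Pcgf1-/-, 4.15-fold higher in Pcgf2/4-/- and 9.99-fold higher in those labelled Pcgf3/5/6-/-. The 95% counting intervals of these ratios began at 2.34, 2.73 and 7.03. Here both the edgeR fit without the filter (adjusted p = 0.0180, 0.0211 and 4.64e-04) and DESeq2 (0.0321, 0.0384 and 0.00121) passed. The first call was lost without wild-type replicate 1 (edgeR adjusted p = 0.0650), wild-type replicate 2 (0.0663) or Pcgf1-/- replicate 1 (0.121). The second was lost without wild-type replicate 1 (0.0720), wild-type replicate 2 (0.0723) or Pcgf2/4-/- replicate 2 (0.167). The third passed without either wild-type library (0.00372 and 0.00380) and without replicate 2 of its own line (0.00136), and without its replicate 1 it was not fitted.

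Isl1, a LIM-homeobox gene of second heart field progenitors, stood at 1.28 and 2.39 CPM in wild-type, 3.72 and 4.80 in Pcgf1-/-, 0.419 and 1.53 in Pcgf2/4-/- and 3.07 and 1.92 in Pcgf3/5-/-. Its levels were 4.61 and 3.06 CPM in Pcgf6-/-, 4.27 and 6.32 in Pcgf1/2/4-/- and 2.53 and 2.70 in the libraries labelled Pcgf3/5/6-/-. Pcgf1-/-, Pcgf6-/-, Pcgf1/2/4-/- and those labelled Pcgf3/5/6-/- lay above both wild-type libraries, and the other lines overlapped them. The rise was 1.15 in Pcgf1-/- (SE 0.39, edgeR adjusted p = 0.0381), 1.07 in Pcgf6-/- (SE 0.39, 0.0362) and 1.53 in Pcgf1/2/4-/- (SE 0.49, 0.0254). None of the 3 calls held in every setting: all were lost without wild-type replicate 1 (edgeR adjusted p = 0.275, 0.275 and 0.132). With the wild-type libraries summed into 1, the p was 0.0622 in Pcgf1-/- and 0.0545 in Pcgf6-/-. The Pcgf1-/- call was also lost without either of its own libraries (0.0809 and 0.0890), as was that in Pcgf1/2/4-/- (0.0553 and 0.241), and that in Pcgf6-/- was lost without its replicate 1 (0.311), with DESeq2 (0.0681) and with loess offsets (log2 fold change 0.23, 0.643). Isl1 was higher in Pcgf1/2/4-/- than in Pcgf2/4-/- by 2.08 (SE 0.56, edgeR adjusted p = 0.0117), lost without Pcgf1/2/4-/- replicate 2 (0.150).

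Tbx5, a T-box factor of heart and forelimb, rested on few counts. It stood at 0 and 0.422 CPM in wild-type, 0.984 and 0.686 in Pcgf1-/-, 2.09 and 2.30 in Pcgf2/4-/- and 0.401 and 0.192 in Pcgf3/5-/-. Its levels were 0.249 and 0.306 CPM in Pcgf6-/-, 2.14 and 0.903 in Pcgf1/2/4-/- and 2.21 and 1.69 in the libraries labelled Pcgf3/5/6-/-. Wild-type, Pcgf3/5-/- and Pcgf6-/- overlapped near the bottom and the other lines lay above them. In Pcgf2/4-/- the scaled ratio to wild-type was 10.6 (95% counting interval 3.20 to 55.1, 23 against 3 counts, edgeR adjusted p = 0.00296), which passed in every alternative that was run. Its size did not hold: all 3 wild-type counts came from replicate 2, and the fitted log2 fold change of 3.27 was 2.35 without wild-type replicate 1 and 6.58 without replicate 2, no bound since wild-type was then at 0. The same settings gave 2.15 and 6.37 in the libraries labelled Pcgf3/5/6-/- and 1.74 and 5.97 in Pcgf1/2/4-/-, against 3.07 and 2.66 with all libraries. The ratio was 9.22 (2.49 to 50.9, edgeR adjusted p = 0.00334) in the libraries labelled Pcgf3/5/6-/-, lost with loess offsets (log2 fold change 0.59, 0.595). In Pcgf1/2/4-/- it was 6.91 (1.48 to 42.7, edgeR adjusted p = 0.0345), lost with loess offsets (0.116), without the filter (0.0563) and without wild-type replicate 1 (0.167), Pcgf1/2/4-/- replicate 1 (0.309) or replicate 2 (0.0588). Tbx5 in Pcgf1-/- did not pass (edgeR adjusted p = 0.0674) but did without wild-type replicate 2 (0.0244). The libraries labelled Pcgf3/5/6-/- exceeded Pcgf3/5-/- by 2.55 on the log2 scale (SE 0.72, edgeR adjusted p = 0.00815) and Pcgf6-/- by 2.73 (SE 0.71, 0.00639). Without their replicate 1 these p-values were 0.0784 and 0.0705, and with loess offsets the first was 0.22 on the log2 scale (0.841).

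The genes around them in the same pathways were counted in lists. Some genes were in more than 1 list, among them Tbx20, Pdgfra and Cdx2, so the counts of different lists are not independent. The counts stand against all genes tested, of which 18.6% were lowered and 27.8% raised in Pcgf6-/-, 25.3% and 28.0% in the libraries labelled Pcgf3/5/6-/-, 18.4% and 13.9% in Pcgf1-/-, 13.5% and 8.10% in Pcgf2/4-/-, 10.4% and 11.1% in Pcgf3/5-/-, and 22.6% and 14.4% in Pcgf1/2/4-/-. Of 8 genes that β-catenin is known to switch on, all tested, 6 fell and 1 rose in Pcgf6-/-, 5 fell and 1 rose in the libraries labelled Pcgf3/5/6-/-, 5 fell in Pcgf1-/- and 4 fell in Pcgf1/2/4-/-, while 3 rose in Pcgf2/4-/- and 1 fell in Pcgf3/5-/-. Their median log2 fold change was -1.94 in Pcgf6-/- and -2.34 in those labelled Pcgf3/5/6-/-, against 0.026 and 0.048 over all genes. Their summed level was 263 to 265 CPM in wild-type and 58.1 to 68.8 in Pcgf6-/-. Sp5, a Wnt-induced zinc finger factor, went from 9.70 and 9.14 CPM in wild-type to 0.124 and 0 in Pcgf6-/- (log2 fold change -6.68, edgeR adjusted p = 3.43e-07) and to 18.0 and 24.7 in Pcgf2/4-/- (1.23, 0.00167). Lef1, a partner of β-catenin on DNA, went from 67.2 and 66.1 CPM to 8.09 and 7.81 in Pcgf6-/- (-3.06, 3.01e-10) and to 16.0 and 18.1 in Pcgf1/2/4-/- (-1.96, 4.32e-07). T fell in Pcgf2/4-/-, where Sp5 rose.

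Of 10 streak signals, all tested, 5 fell and 1 rose in Pcgf6-/-, and 1 fell and 4 rose in the libraries labelled Pcgf3/5/6-/-, where 28.0% of all genes rose. Their median log2 fold change was -0.52 and 0.69. Bmp4 went from 166 and 161 CPM in wild-type to 29.5 and 23.6 in Pcgf6-/- (log2 fold change -2.62, edgeR adjusted p = 1.21e-09) and 26.2 and 29.4 in those labelled Pcgf3/5/6-/- (-2.56, 4.08e-09). Nodal, the ligand that induces Eomes and Mixl1, was at 131 and 134 CPM in wild-type and at 217 and 216 in Pcgf1/2/4-/- (0.71, 5.84e-04). Of 6 secreted antagonists 4 were tested: all 4 rose in the libraries labelled Pcgf3/5/6-/-, 2 fell in Pcgf1-/-, and 1 rose and 2 fell in Pcgf6-/-, with a median log2 fold change there of -0.75. The one that rose in Pcgf6-/- was Dkk1, a Wnt antagonist, which went from 7.85 and 7.74 CPM to 54.7 and 52.1 (2.77, edgeR adjusted p = 8.32e-09). Lefty1 and Lefty2, inhibitors of Nodal, fell there by 0.72 and 0.79 on the log2 scale (edgeR adjusted p = 0.0118 and 2.14e-05). Of 16 nascent and presomitic genes 9 were tested, and 4 rose and 2 fell in Pcgf6-/-, beside 27.8% and 18.6% of all genes. The 2 that fell were Cdx2 and Fgf17, a streak relative of Fgf8. Cdx2 went from 71.1 and 77.8 CPM in wild-type to 4.61 and 6.13 (log2 fold change -3.80, edgeR adjusted p = 4.52e-10). Fgf17 went from 11.7 and 9.56 CPM to 3.61 and 2.45 (-1.78, 3.09e-04). Mesp2, of the same family as Mesp1, rose from 3.85 and 2.53 CPM to 13.4 and 12.6 in Pcgf6-/- (2.02, 4.51e-05) and 29.1 and 17.9 in the libraries labelled Pcgf3/5/6-/- (2.88, 2.03e-06). In Pcgf1-/- 3 of the 9 rose and 3 fell, beside 13.9% and 18.4% of all genes. Fgf17 fell there from 11.7 and 9.56 CPM to 0.547 and 0.914 (-3.94, 1.70e-05).

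Of 12 cardiac and lateral plate genes 7 were tested, with 3 raised and 1 lowered in Pcgf1/2/4-/- and 2 lowered in Pcgf2/4-/-. In the libraries labelled Pcgf3/5/6-/- 4 were raised and 1 lowered. Myl7, of this list, stood at 50.4 and 55.7 CPM in wild-type and was lowered in every knockout. Its log2 fold change ran from -0.82 in Pcgf3/5-/- (edgeR adjusted p = 0.00105) to -2.13 in Pcgf2/4-/- (3.15e-06). Tbx20, a cardiac T-box factor, went from 10.1 and 7.74 CPM in wild-type to 0.419 and 1.53 in Pcgf2/4-/- (log2 fold change -2.81, edgeR adjusted p = 9.42e-05), the line with the highest fitted Tbx5 change, and to 24.6 and 23.5 in Pcgf1/2/4-/- (1.42, 3.96e-04). Of 13 other T-box genes 7 were tested, with 5 raised, Tbx20 again among them, and 1 lowered in Pcgf1/2/4-/-. The lowered one was Mga, which encodes a partner of PCGF6 with its own T-box, at 98.8 and 103 CPM against 226 and 216 (-1.13, 1.96e-05). Mga was lowered also in Pcgf6-/-, at 112 and 114 CPM (-0.97, 1.43e-05). In the libraries labelled Pcgf3/5/6-/- it was at 90.0 and 88.9 CPM (-1.30, 1.25e-06). Of 9 node and endoderm genes 3 were tested, and 2 rose in Pcgf6-/- and 2 in the libraries labelled Pcgf3/5/6-/-. Hhex, an endoderm homeobox gene, was one of those in Pcgf6-/-, at 37.6 and 43.2 CPM against 28.5 and 33.2 in wild-type (0.39, edgeR adjusted p = 0.0197), and stood at 29.1 and 31.8 in those labelled Pcgf3/5/6-/-.

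Markers of other cell types moved in the same lines. In Pcgf6-/-, where T and Eomes were lowest, the summed level of 9 primitive endoderm markers was 186 to 197 CPM against 17.7 to 20.0 in wild-type, with 4 of 6 tested raised, and 5 of the 9 were at 0 in wild-type and none in Pcgf6-/-. The libraries labelled Pcgf3/5/6-/- had 186 to 195 CPM of these, with 5 of 6 raised. They had 785 to 786 CPM of 8 trophoblast markers against 131 to 138, with 7 of 8 raised, 1 lowered and none at 0. In Pcgf6-/- trophoblast markers summed to 157 to 173 CPM, with 6 of 8 raised and 1 lowered. The lowered marker in both lines was Cdx2, at 4.61 and 6.13 CPM in Pcgf6-/- and 18.6 and 20.3 in those labelled Pcgf3/5/6-/-. In wild-type Cdx2 stood at 71.1 and 77.8 CPM, within the sum of 131 to 138. Fibroblast markers summed to 36.3 to 42.8 CPM in Pcgf6-/- against 8.02 to 10.8, and neural markers to 31.9 to 32.8 CPM in those labelled Pcgf3/5/6-/- against 4.36 to 6.71. Most of that neural sum was 1 gene, Nes, at 25.6 and 25.7 CPM against 4.57 and 2.81. Of the 8 neural markers 2 were tested, with 2 raised, and 3 were at 0 in those libraries. Pluripotency markers summed to 2327 to 2453 CPM in Pcgf6-/- against 2711 to 2735, with 2 of 14 raised and 3 lowered. In those labelled Pcgf3/5/6-/- they summed to 2656 to 2668 CPM, with 3 of 14 raised and 7 lowered. The part of these changes in those of T, Eomes, Isl1 and Mesp1 was not tested.

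Across the 14 libraries, the genes whose log2 CPM followed each member most closely were Abca7 and Hnf4a for T (Pearson r = 0.92 for both, of 12973 genes), Zbtb25 and Lmna for Eomes (0.94), Dmrt1 for Mixl1 (0.91), Rasip1 (0.92) and Lpl (0.88) for Isl1, and Igsf3 (0.88) and Fam83h (0.87) for Tbx5. Between members r was 0.59 for Eomes and Mixl1, 0.59 for Mixl1 and Isl1, 0.49 for T and Eomes and -0.60 for T and Isl1. It was 0.066 for T and Mixl1, and the other 5 pairs lay between -0.15 and 0.097. These values describe 7 genotypes with 2 libraries each, which share depth and clone, and carry no test.

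At chromatin level, a gene was counted as marked when a deposited peak touched the 2.5 kb on either side of one of its annotated starts. Except for RING1B and H2AK119Ub1 in Pcgf1/2/4-/-, which had 2 lists, each antibody had 1 list per line, so differences between lines have no replicate check. In wild-type, RING1B peaks were at 9 of the 10 genes, all but Tbx6, against 15.1% of 22380 protein-coding genes. Covered stretches ran from 1201 bases at Mesp1 and 1394 at Mixl1 to 4924 at Gsc and the whole 5055 bases at Evx1. At T the wild-type RING1B peak was chr17:8625296-8628602, which spans the start, with a fold enrichment of 22.1 by the authors' peak caller and a −log10 q of 86.9, within the top 8.03% of that list. Taking 1 peak for each of the 9 genes, the one with the highest −log10 q where a window held several, the authors' fold ran from 10.6 at Mesp1 to 25.2 at Fgf8. The size of a fold is not set against that in another list here.

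**Figure D3:**
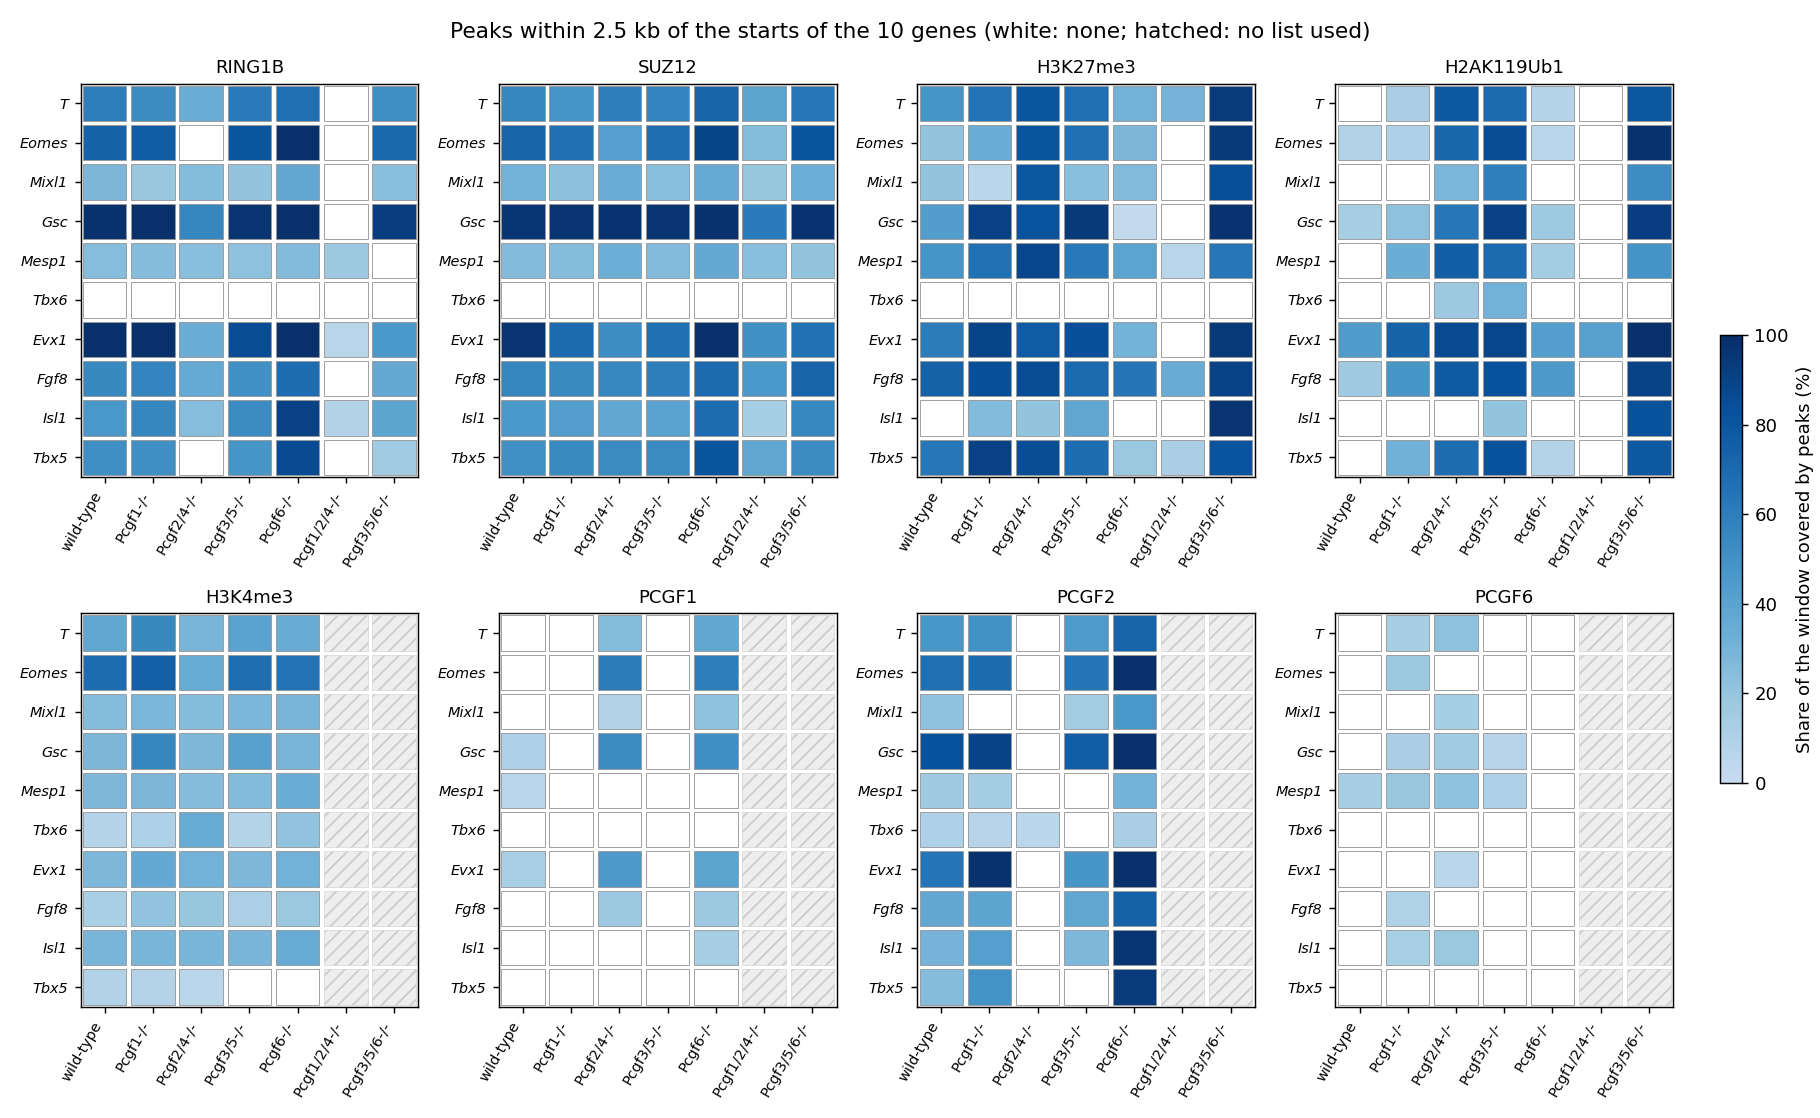
Peaks of 8 antibodies (panels) at the 10 genes (one axis) in the 7 lines (other axis). Colour gives the share of the window around the start that peaks cover, white is no peak and hatching is no list used. RING1B marks 3 genes in the first Pcgf1/2/4-/- list while SUZ12 marks 9 in every line, and Tbx6 lacks RING1B and SUZ12 throughout.

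RING1B peaks remained at 9 of the 10 genes in Pcgf1-/- (15.2% of all genes), Pcgf3/5-/- (15.4%) and Pcgf6-/- (12.6%), at 8 in the line labelled Pcgf3/5/6-/- (7.88%) and at 7 in Pcgf2/4-/- (17.0%). In Pcgf1/2/4-/- they were at 3 genes in one list (6.84%) and 2 in the other (6.15%). Eomes and Tbx5 had no RING1B peak in Pcgf2/4-/-, although more genes overall were marked there than in wild-type. With a 5 kb window Tbx5 had one there and Eomes did not. Mesp1 had none in the line labelled Pcgf3/5/6-/-, where its counts were above wild-type, but kept one in Pcgf6-/-, where they were too. In Pcgf1/2/4-/- Mesp1 was marked in both lists, over 875 and 723 bases, Isl1 (429 bases) and Evx1 (308) in the first alone and Gsc (264) in the second alone. T, Eomes, Mixl1, Fgf8 and Tbx5 had no RING1B peak in either list. Among these, T had a log2 fold change of -4.06 in that line, Eomes and Mixl1 did not pass the test, and Tbx5 was raised.

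SUZ12 peaks were at the same 9 genes in all 7 lines, against 13.0% to 21.0% of all genes. At T they covered 3078 bases of the window in wild-type, 2178 in Pcgf1/2/4-/- and 4031 in Pcgf6-/-, and at Isl1 2300, 662 and 3464. H3K27me3 peaks were at 8 genes in wild-type (12.8%) and Pcgf6-/- (13.6%), lacking Tbx6 and Isl1, and at 9 in Pcgf1-/- (19.4%), Pcgf2/4-/- (35.8%), Pcgf3/5-/- (20.9%) and the line labelled Pcgf3/5/6-/- (19.7%). In Pcgf1/2/4-/- they were at T, Mesp1, Fgf8 and Tbx5 (5.49%), of which T and Fgf8 had one within 1 kb. H2AK119Ub1 peaks were at 4 genes in wild-type (3.76%), Eomes, Gsc, Evx1 and Fgf8, and at Evx1 alone in both Pcgf1/2/4-/- lists (1.64% and 0.827%). They were at 7 in Pcgf1-/- (9.79%) and Pcgf6-/- (6.93%), at 9 in Pcgf2/4-/- (40.8%) and the line labelled Pcgf3/5/6-/- (31.2%) and at all 10 in Pcgf3/5-/- (65.0%), lists in which the share of all genes was also high. H3K4me3, a mark of active and poised promoters, was at all 10 genes in wild-type, Pcgf1-/- and Pcgf2/4-/- and at 9 in Pcgf3/5-/- and Pcgf6-/-, without Tbx5, against 64.9% to 67.9% of all genes.

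**Figure D4:**
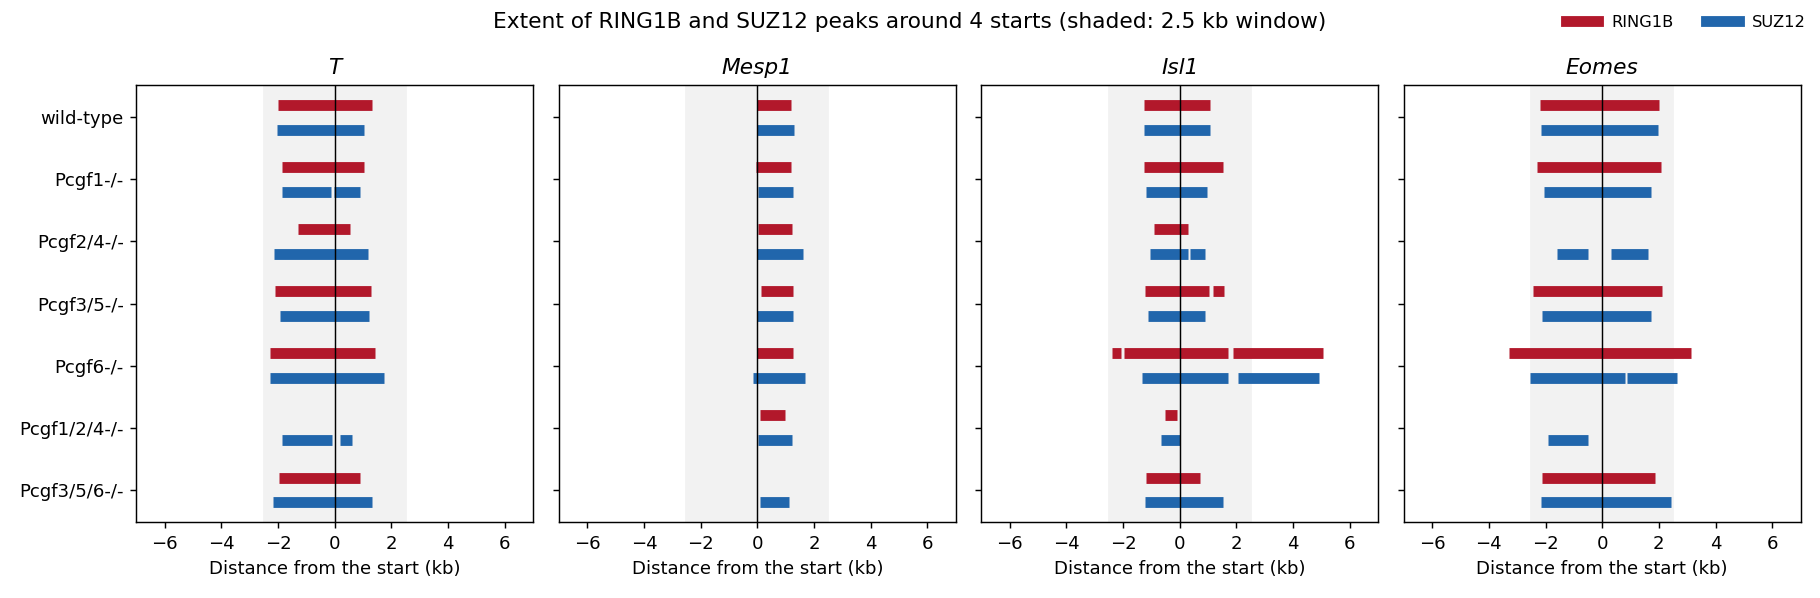
Extent of RING1B (red) and SUZ12 (blue) peaks around the starts of T, Mesp1, Isl1 and Eomes (horizontal axes, distance from the start in kb along the gene) in the 7 lines (rows), with the 2.5 kb window shaded. In the first Pcgf1/2/4-/- list RING1B is absent at T and Eomes and covers 429 bases at Isl1 and 875 at Mesp1.

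PCGF2 peaks were at all 10 genes in wild-type (12.7% of all genes) and Pcgf6-/- (19.5%), at 9 in Pcgf1-/- (12.4%), without Mixl1, and at 7 in Pcgf3/5-/- (9.59%), without Mesp1, Tbx6 and Tbx5. They were at 9 in Ring1a-/-_Ring1bfl cells (9.51%) and at none in Ring1a/b-/- (1.55%) or Ezh1/2-/- (0.755%). In Pcgf2/4-/-, where the antibody's target is absent by label, the list still held 1050 peaks (3.40% of all genes). Of the 10 genes 1 remained marked there, Tbx6. In the 4 lists that had that Tbx6 peak its summit lay between -735 and -685 bases from the start. Tbx6 also lacked RING1B, SUZ12 and H3K27me3 in every line, so that its PCGF2 peak was the one without those marks. After the printed Tbx6 window was seen, the letters ACTACAATTCC in it, at -62 to -52 bases from the summit, were searched in the other lists, since they are part of the known ZNF143 motif. They were in 0.917% of 4472 wild-type PCGF2 summit windows, 0.854% of 4217 in Pcgf1-/-, 1.52% of 1050 in Pcgf2/4-/-, 0.0623% of 3210 in Pcgf3/5-/-, 0.594% of 7739 in Pcgf6-/-, none of 5454 wild-type RING1B windows and 0.349% of the upstream windows.

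PCGF1 peaks were at Gsc, Mesp1 and Evx1 in wild-type (2.47% of all genes), at none of the 10 in Pcgf1-/-, whose list held 15 peaks, or in Pcgf3/5-/- (0.755%), at 6 in Pcgf2/4-/- (5.51%) and at 7 in Pcgf6-/- (9.79%). In Ring1a-/-_Ring1bfl cells they were at 9 (31.7%) in Ezh1/2-/- at 8 (11%) and in Ring1a/b-/- at 3 (4.14%), Eomes, Mixl1 and Fgf8. PCGF6 peaks were at Mesp1 alone in wild-type (5.77%), the window printed above, at 6 genes each in Pcgf1-/- (17.6%) and Pcgf2/4-/- (32.4%), at Gsc and Mesp1 in Pcgf3/5-/- (5.32%) and at none in Pcgf6-/- (1.64%). Mesp1 had one in each of these lists but the last. T, which of the tested members fell most in Pcgf6-/-, had no PCGF6 peak in wild-type but had one in Pcgf1-/-, Pcgf2/4-/- and shCtr cells. In shCtr cells PCGF6 marked 8 of the 10 genes (20.2%), all but Tbx6 and Tbx5, and it marked none in shE2F6 (1.89%), shMGA (0.710%) or shE2F6-MGAdHLH cells (0.831%) and Fgf8 alone in shMGAdHLH cells (2.23%), where few genes overall were marked. It was at Eomes and Mesp1 in Ring1a-/-_Ring1bfl cells (6.15%) and at none in Ring1a/b-/- (4.74%). PCGF3 peaks were at none of the 10 in any of 10 lists, which marked only 0.00894% to 2.26% of all genes, and USF1 peaks, a factor of E-boxes, were at none of them against 16.2% of all genes.

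**Figure D5:**
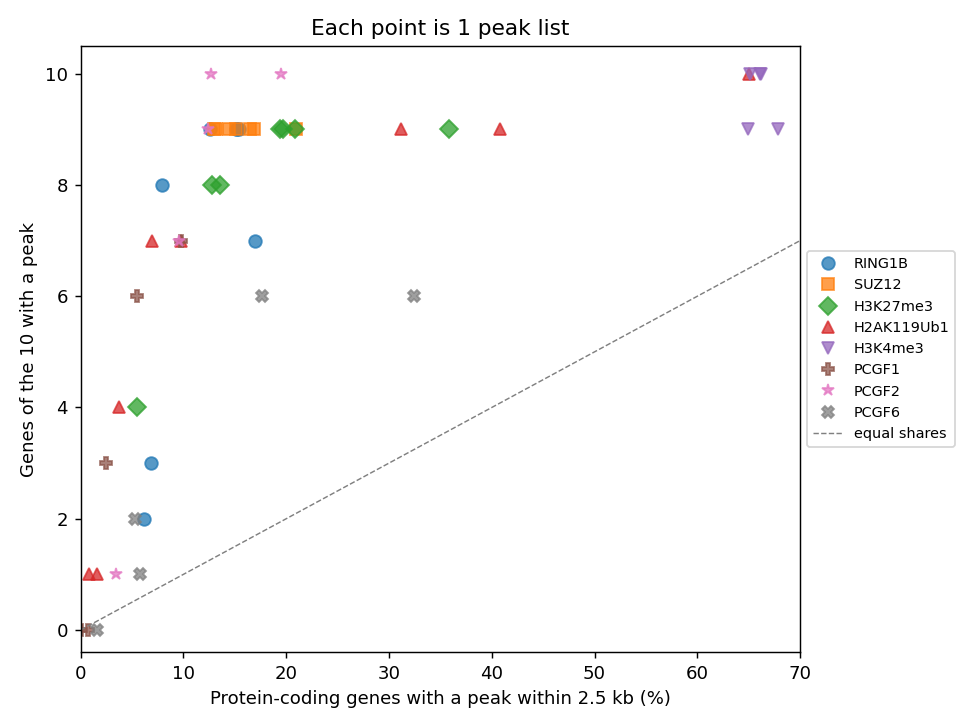
Number of the 10 genes with a peak (vertical axis) against the percent of all protein-coding genes with a peak (horizontal axis), 1 point for each peak list of 8 antibodies in wild-type and the 6 PCGF knockouts, coloured by antibody. SUZ12 lists lie at 9 of the 10 with 13.0% to 21.0% of all genes marked, and H3K4me3 lists at 9 to 10 with 64.9% to 67.9%.

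The promoters differed in CpG content, which Polycomb occupancy is known to follow. In the 1001 bases around the start, the ratio of observed to expected CpG was 0.928 at Gsc, 0.813 at Mixl1, 0.789 at Fgf8, 0.774 at Isl1, 0.647 at T, 0.622 at Eomes and 0.611 at Evx1, against a median of 0.553 over protein-coding genes. Mesp1 (0.411), Tbx6 (0.330) and Tbx5 (0.121) lay below that median, and 90.0% of genes were at least as high as Tbx5. Of these 3, Tbx6 had no RING1B peak in any line, Mesp1 was marked over 1201 bases and Tbx5 over 2559 bases in wild-type.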

How the data were processed

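RNA abundance came from 1 table in which the authors deposited whole-number counts per gene symbol. Per the submitters' processing notes the tools used in the series were TopHat2 2.1.1, HTSeq 0.7.2, Bowtie 1.2.2, Picard 1.62, MACS2 2.1.1, bcl2fastq 2 and DESeq2 3.7, with the build mm9. Their settings and the use of strand were not given in the sources used here. Per the file headers, the authors deposited log2 fold changes and adjusted p-values in 6 comparison tables. Each peak list gave a fold ratio and −log10 q per peak as the authors deposited them from MACS2, 1 list per sample. All 14 RNA libraries entered 1 quasi-likelihood fit with edgeR 4.0.16 (limma 3.58.1, R 4.3.3) after filterByExpr and TMM scaling, with Benjamini-Hochberg adjustment over 15464 genes, a threshold of 0.05 and 7 residual degrees of freedom. Standard errors are the log2 fold change over the root of its F statistic. The 95% intervals of log2 fold changes take these with a normal quantile, so they can be narrower than the edgeR p-values imply. The biological coefficient of variation was 12.3%. Counting intervals are exact at 95% and cover counting error only, and a group at 0 was set to a floor of 3 counts over its libraries. Of the table, 0 rows named no gene and 0 columns of samples were unmapped. Starts came from GENCODE M1 (NCBIM37), and of the chromosome names in the peak lists 0 lay outside that build. A peak overlapping a window by at least 1 base counted. The test was checked on simulated counts.

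The members and the gene lists were chosen with earlier results of these data known. All members are named; of each list at most 3 genes per comparison could be named, those past the threshold with the largest change, a mean log2 CPM of at least 1 and both libraries beyond both of the other group, and for each tested member the 2 most correlated genes (log2 CPM with a prior count of 2), of which 1 is not reported here. Same-numbered replicates did not deviate together (3 of 21 pairs of groups above a correlation of 0.1), so no block was used. Alternatives were RLE scaling, no filter, a replicate block, loess offsets, fits of only the groups compared, DESeq2 1.42.0, leaving out each library, windows of 1 and 5 kb and a −log10 q of at least 5. Summing the wild-type libraries into 1 was added after seeing the data. The fly spike-in of the histone ChIP was not used here.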

Additional observations from a re-analysis of the deposited data

How the results depend on the processing

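Under the alternatives, 450 fold changes of single genes kept their direction and their side of the threshold, 41 lost the call, 7 gained it, 22 that were never called changed sign, and none that was called reversed. T was lowered in all 6 knockouts under every alternative. Where the count of genes called per comparison moved by over 1.5 times, the values were these. With RLE scaling, 1 gene (Tbx5) was called in the libraries labelled Pcgf3/5/6-/- against Pcgf3/5-/-. Without the filter on low counts, 7 were called in Pcgf6-/-, 5 in those labelled Pcgf3/5/6-/-, 2 in Pcgf1/2/4-/- against Pcgf1-/-, and 4 in those labelled Pcgf3/5/6-/- against Pcgf3/5-/- and 4 against Pcgf6-/-, since genes of few counts then entered. With DESeq2, 2 were called in Pcgf1/2/4-/- against Pcgf1-/- and 4 in those labelled Pcgf3/5/6-/- against Pcgf6-/-. With only the 2 groups compared, 2 were called in Pcgf2/4-/-, 1 in those labelled Pcgf3/5/6-/- against Pcgf6-/- and 0 against Pcgf3/5-/-, where edgeR gave 2 at an unadjusted p below 0.05 and DESeq2 called 2. With the wild-type libraries summed, 5 were called in those labelled Pcgf3/5/6-/-. With the replicate block, 1 was called in Pcgf1-/- (T, while Isl1 had an edgeR adjusted p of 0.0510), and the counts of the other 9 comparisons did not change, although the numbers were not found to pair the libraries. Leaving out 1 library at a time gave 1 to 3 in Pcgf1-/-, 1 to 2 in Pcgf3/5-/-, 1 to 3 in Pcgf1/2/4-/- and 3 to 5 in those labelled Pcgf3/5/6-/-, 1 to 2 in Pcgf1/2/4-/- against Pcgf1-/-, 0 to 4 in those labelled Pcgf3/5/6-/- against Pcgf3/5-/- (0 without their replicate 1, with edgeR giving 1 at an unadjusted p below 0.05), and 1 to 3 against Pcgf6-/-. Where no construction is named, the cause was not tested. For each antibody reported, the number of gene and line pairs with a peak stayed within 1.5 times under windows of 1 and 5 kb and a −log10 q of at least 5, while that of single lists moved further once, for H3K27me3 in Pcgf1/2/4-/- (4 genes, 2 with a 1 kb window). Some absences of single genes depended on the 2.5 kb window. With 5 kb, Tbx5 had a RING1B peak in Pcgf2/4-/- and H3K4me3 peaks in Pcgf3/5-/- and Pcgf6-/-, and Isl1 had H3K27me3 in wild-type. The depth of 2147968 to 7848161 counts limits Gsc, Mesp1, Tbx6, Evx1 and Fgf8 to a few counts per library.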
